A study of Saccharomyces cerevisiae with 12 samples.

Results

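The genes that encode the small-subunit processome and the later assembly factors of the 40S ribosomal subunit were followed through a yeast RNA co-immunoprecipitation data set. The members were a list of 57 gene identifiers among 7126 annotated features. They were chosen by name and not by measured values, though with earlier results of these data known. They cover 8 roles: UTP-A (7 genes), UTP-B (6), UTP-C (2), the Mpp10 complex (3), box C/D and U3 proteins (5), RNA helicases with a cofactor (7), other processome factors (20) and late 40S factors (7). What was measured is the messenger RNA of these genes that came down with a protein, not the processome itself.

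The small-subunit processome is the large nucleolar particle that forms on the nascent ribosomal RNA precursor and holds it while the 18S RNA is folded, modified and cut free. The U3 small nucleolar RNA, a box C/D RNA packed by Nop1, Nop56, Nop58 and Snu13 with Rrp9, base-pairs with the precursor, and the UTP-A, UTP-B, UTP-C and Mpp10 complexes build the scaffold around it. After the helicases have taken the particle apart, late factors such as Nob1 and Rio2 complete the 40S subunit in the cytoplasm. In yeast the genes of these factors belong to the ribosome biogenesis regulon, which is known to be turned down for a time after heat stress.

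RNA was taken with Mex67, the mRNA export receptor, from strain HKY1266, and with Npl3, an SR-like mRNA-binding protein that accompanies messages out of the nucleus, from strain HKY157. A control without a tag came from strains named HKY36 and HKY381, and the labels do not say which library came from which. Every strain grew in YPD at 25 °C to log phase. Each culture was then divided and kept for 30 min at 42 °C or at 25 °C before UV cross-linking. This gave 6 groups of 2 libraries, in the order Mex67 at 42 °C, Mex67 at 25 °C, Npl3 at 42 °C, Npl3 at 25 °C, no tag at 42 °C and no tag at 25 °C. The beads carried c-myc antibody or were GFP-Trap beads, and the labels do not assign them to samples. A difference in strain or beads cannot be told apart from the protein in any comparison between strains. With 2 samples a group, the p-values rest on the spread over all 12 libraries. No library of total cellular RNA was used here, so less message in the cells and less of it bound cannot be told apart.

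Total counts lay between 87741 and 1140349 per library, and those of the members between 469 and 9144. The lowest of both belonged to the no-tag library of replicate 1 at 42 °C, which stood apart from the rest. In it small nucleolar and nuclear RNAs held 30.4% of the counts. Its level of HSP26, a small heat shock protein gene, was 301 CPM (count rate scaled to library size), against 3553 to 10330 CPM in the other 5 libraries labelled 42 °C and 56.8 to 634.5 CPM at 25 °C. In its 25 °C partner HSP26 read 56.8 CPM, below those 301 CPM. HSP12, another heat shock gene, read 301 CPM in the library labelled 42 °C and 254 CPM in that partner. The other no-tag library at 42 °C had 4337 CPM of HSP12. Each of the 2 readings of 301 CPM rests on 18 counts. Whether the no-tag library of replicate 1 was heated as labelled is therefore in doubt. Every no-tag value at 42 °C and every no-tag heat change carries that doubt. The 25 °C partner of that library had the lowest member share of all libraries, 0.359% of counts. The shares elsewhere ran from 0.486% to 0.890%. STE2, the receptor gene of a cells, read 0 to 7.75 CPM in the 6 libraries of replicate 1 and 126 to 356 CPM in the 6 of replicate 2. STE3, an alpha-cell gene, read 300.3 to 468.4 CPM without a tag, 23.4 to 201.6 CPM with Mex67 and 1.24 to 54.5 CPM with Npl3. A model with the replicate number as a block is given among the alternatives. The part of either difference in the results was not tested otherwise. The members' medians, and the members that passed against no tag, are given with and without the no-tag library of replicate 1 at that temperature.

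Of the 57 members 56 had enough counts to be tested, among 5245 features. The exception was IMP3, a small U3-binding protein of the Mpp10 complex, with 0 to 27 counts per library. Divided by gene length, the members' mean levels over all 12 libraries ranged from 626 CPM per kb for SNU13 to 11.5 CPM per kb for FAL1. SNU13 encodes a protein that box C/D RNAs share with the U4 spliceosomal RNA, and FAL1 an eIF4A-like helicase. The next levels after SNU13 were those of NOP1 at 397, NOP56 at 243, NSR1 at 214 and NOP58 at 172 CPM per kb. NOP1 encodes the methyltransferase fibrillarin, NOP56 and NOP58 the paired core proteins of box C/D particles, and NSR1 the yeast nucleolin. The other lowest levels were 17.0 CPM per kb for DBP8 and 12.7 for DHR2, both RNA helicase genes. On this pooled mean the box C/D core genes had 4 of the 5 highest levels per length, and helicase genes the 3 lowest. The order differed between groups. SNU13 was highest with Npl3, at 892 CPM per kb at 42 °C and 1490 at 25 °C. NOP1 was above SNU13 with Mex67, at 295 against 272 CPM per kb at 42 °C and 663 against 307 at 25 °C, and without a tag at 25 °C, at 467 against 391. Without a tag at 42 °C, NSR1 had 439 CPM per kb and SNU13 406. None of the members overlapped another feature of the reference table.

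**Figure D1:**
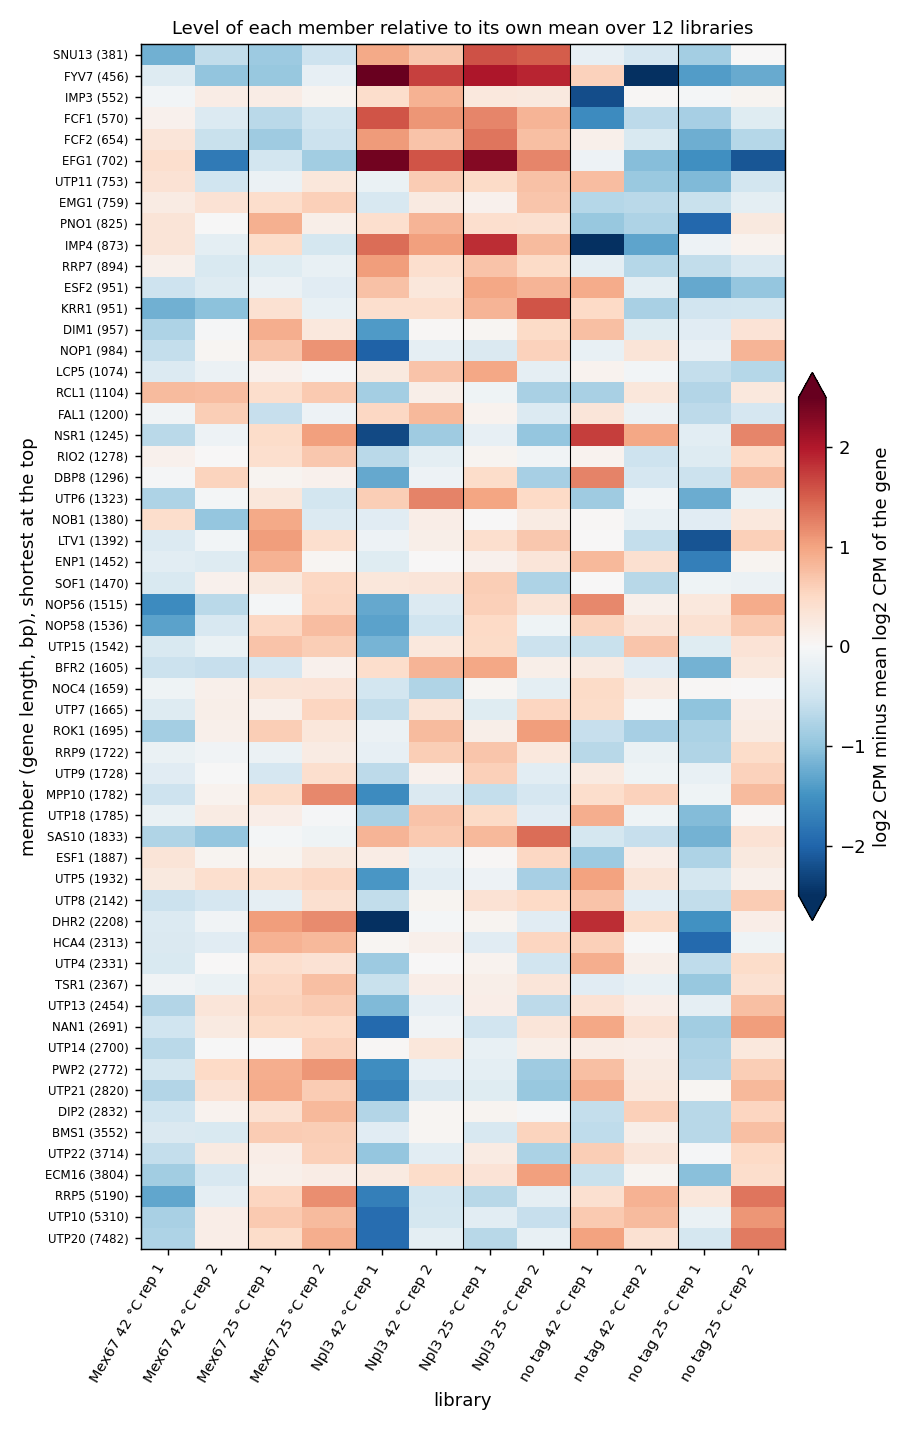
Each row is a member, ordered by gene length in bp with the shortest at the top, and each column a library; colour gives the member's log2 CPM minus its own mean over the 12 libraries. The reddest cells of the 4 Npl3 libraries lie in upper rows (such as SNU13, FYV7, FCF1, FCF2 and EFG1). Longer members such as SAS10 and UTP6 are red in these libraries too, and the short NOP1 is blue with Npl3 at 42 °C. The Mex67 libraries at 42 °C are bluer than those at 25 °C.

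Npl3 libraries were compared with the no-tag libraries to see which of these messages came down with Npl3 above background. At 25 °C, 6 members were higher with Npl3 and 0 lower at an adjusted p under 0.05, against 2.27% of all features higher and 0.133% lower (edgeR quasi-likelihood test, Benjamini-Hochberg over all features). All 6 encode processome factors and none a late 40S factor, a role that holds only 7 of the 56 members tested. A contrast between the roles was not tested. The strongest was EFG1, a nucleolar factor of early pre-rRNA processing (YGR271C-A, chromosome VII, 1037800 to 1038501 in build R64). It had 192 and 89.7 CPM with Npl3, against 10.7 and 5.93 CPM in the no-tag libraries. The Npl3 libraries lay far above both controls, which held only 6 and 2 counts of it. The log2 difference was 3.97 ± 0.76 (SE, edgeR adjusted p = 0.0324).

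FYV7, needed for processing of the 35S precursor (YLR068W, chromosome XII, 271008 to 271463), had 142 and 131 CPM with Npl3 and 10.7 and 11.9 CPM without a tag. Its log2 difference was 3.58 ± 0.76 (edgeR adjusted p = 0.0347), on only 6 and 4 counts in the controls. FCF2, another factor of the early cleavages (YLR051C, chromosome XII, 246324 to 246977), had 121 and 78.5 CPM with Npl3 and 17.8 and 26.7 CPM without a tag. In both genes each Npl3 library was above each control, and FCF2 differed by 2.18 ± 0.46 on the log2 scale (edgeR adjusted p = 0.0343). FCF1, which encodes a PIN-domain nuclease of the processome (YDR339C, chromosome IV, 1149951 to 1150520), had 133 and 102 CPM with Npl3 and 30.2 and 44.5 CPM without a tag. With a log2 difference of 1.68 ± 0.40 it was nearest to the threshold (edgeR adjusted p = 0.0495).

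ESF2, the cofactor of the helicase Dbp8 (YNR054C, chromosome XIV, 723356 to 724306), had 121 and 111 CPM with Npl3, against 23.1 and 29.7 CPM in the no-tag libraries. It was higher by 2.15 ± 0.42 (edgeR adjusted p = 0.0324), while the message of its partner helicase DBP8 had 27.8 and 9.61 CPM with Npl3 and 12.4 and 35.6 CPM without a tag, overlapping groups. SNU13 (YEL026W, chromosome V, 101943 to 102323) had 583 and 553 CPM with Npl3 and 105 and 193 CPM without a tag. Its groups were wide apart, by 1.94 ± 0.40 on the log2 scale (edgeR adjusted p = 0.0343). Of the other box C/D and U3 genes, NOP56 had 485 and 400 CPM with Npl3, inside the 384 to 608 CPM of the controls, and the role as a whole had a median of -0.16. KRR1, a KH-domain processome protein, was just outside the threshold, with 151 and 250 CPM for Npl3, 58.6 and 59.3 CPM for no tag and a log2 difference of 1.77 ± 0.43 (edgeR adjusted p = 0.0519).

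The median log2 difference of the 56 members was 0.37 at 25 °C, against 0.00 over all features, and 34 members were above 0. Both Npl3 libraries lay above both controls in 17 members, against 28.2% of all features, and below them in 4, against 27%. By role the median was 0.87 for the helicases with their cofactor ESF2 and 0.71 for the other processome factors. It was 0.41 for the late 40S factors, -0.17 for UTP-A and -0.28 for UTP-B. Without no-tag replicate 1 at 25 °C these role medians were 0.31, 0.28, -0.06, -0.60 and -0.76, in the same order. The lowest difference among the more abundant members was that of RRP5, a large RNA-binding protein used by both subunits' precursors, with 243 and 336 CPM for Npl3 and 483 and 1003 CPM for no tag. The groups of RRP5 did not overlap, but it did not pass the test. The size of the median of all members depended on the controls too: it was -0.06 without no-tag replicate 1 at 25 °C and 0.91 without replicate 2. No member passed the test when either no-tag library or either Npl3 library of 25 °C was left out, which leaves 1 library on that side. The differences without no-tag replicate 1 were 4.51 for EFG1, 3.497 for FYV7, 1.96 for ESF2, 1.88 for FCF2, 1.56 for SNU13 and 1.40 for FCF1, with edgeR adjusted p of 0.16, 0.203, 0.188, 0.212, 0.213 and 0.25.

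At 42 °C, 4 members were higher with Npl3 than without a tag, against 6.52% of all features, and 1 was lower, against 0.934% (edgeR, same threshold). EFG1, FYV7 and FCF1 passed here as well. EFG1 had 209 and 115 CPM with Npl3 and 33.5 and 16.0 CPM without a tag, a log2 difference of 3.05 ± 0.80 (edgeR adjusted p = 0.0397). FCF1 had 171 and 123 CPM with Npl3 and 16.7 and 34.4 CPM without a tag, a difference of 2.26 ± 0.46 (edgeR adjusted p = 0.0201). In both, the lower Npl3 library was above the higher control. FYV7 passed with an edgeR adjusted p of 0.0268, but its 2 no-tag libraries held only 3 counts together, against 294 with Npl3. The ratio of their rates was 24.3, with a 95% interval of 8.25 to 118.7 that covers counting error only.

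IMP4, which binds U3 RNA in the Mpp10 complex (YNL075W, chromosome XIV, 485607 to 486479), had 107 and 82.2 CPM with Npl3 and 0 and 13.8 CPM without a tag at 42 °C. It differed by 3.01 ± 0.67 (edgeR adjusted p = 0.0249), with only 0 and 6 counts in the controls. Without the control at 0 counts the difference was 2.69, and without the other control it was 8.92. At 25 °C the Npl3 libraries were also above the controls in IMP4, but the difference of 1.49 did not pass (edgeR adjusted p = 0.11). NSR1 (YGR159C, chromosome VII, 806412 to 807656) was the member that fell: it had 41.0 and 109 CPM with Npl3, against 686 and 408 CPM in the no-tag libraries. Its log2 difference was -2.82 ± 0.61 (edgeR adjusted p = 0.0223). At 25 °C the groups of NSR1 overlapped, with 178 and 104 CPM for Npl3 and 171 and 484 CPM for no tag.

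SNU13, FCF2 and ESF2, called at 25 °C, did not pass at 42 °C. SNU13 had 371 and 309 CPM with Npl3 and 167 and 142 CPM without a tag, still wide apart, with a difference of 1.16 ± 0.42 (edgeR adjusted p = 0.099). ESF2 overlapped, with 103 and 74.7 CPM for Npl3 and 117 and 50.4 CPM for no tag. Whether the differences themselves changed with temperature was tested as the heat change with Npl3 minus that without a tag. With edgeR 0 members passed, and DESeq2 gave 0. Before adjustment 2 of 56 members reached 0.05 with edgeR, against 153 of 5245 features. The UTP-A genes, the first complex to join the precursor, were all below 0 at 42 °C with a median of -0.82, and without no-tag replicate 1 the median was -1.05 with 6 of 7 below 0. UTP10 among them had 57.1 and 164 CPM with Npl3 and 351 and 385 CPM without a tag, a difference of -1.74 ± 0.56 that did not pass (edgeR adjusted p = 0.0717). Over all members the median was -0.08, against 0.10 for all features, and without no-tag replicate 1 it was -0.0086, against -0.010. The sign of the members' median was not stable: it was 0.36 on total counts alone, against 0.52 for all features, and ranged from -0.35 to 0.13 when single libraries were left out. The Npl3 libraries were both above the controls in 17 members, against 34.9% of all features, and both below in 18, against 24.5%. The calls at 42 °C moved with single libraries: 1 member passed without no-tag replicate 1, 0 without no-tag replicate 2 or Npl3 replicate 1, and 14 without Npl3 replicate 2. The 1 member without no-tag replicate 1 was FYV7, whose remaining control is at 0 counts (edgeR adjusted p = 0.0421). EFG1 then differed by 3.23, IMP4 by 2.69, FCF1 by 2.01 and NSR1 by -2.48 (edgeR adjusted p = 0.12, 0.101, 0.0956 and 0.107).

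**Figure D2:**
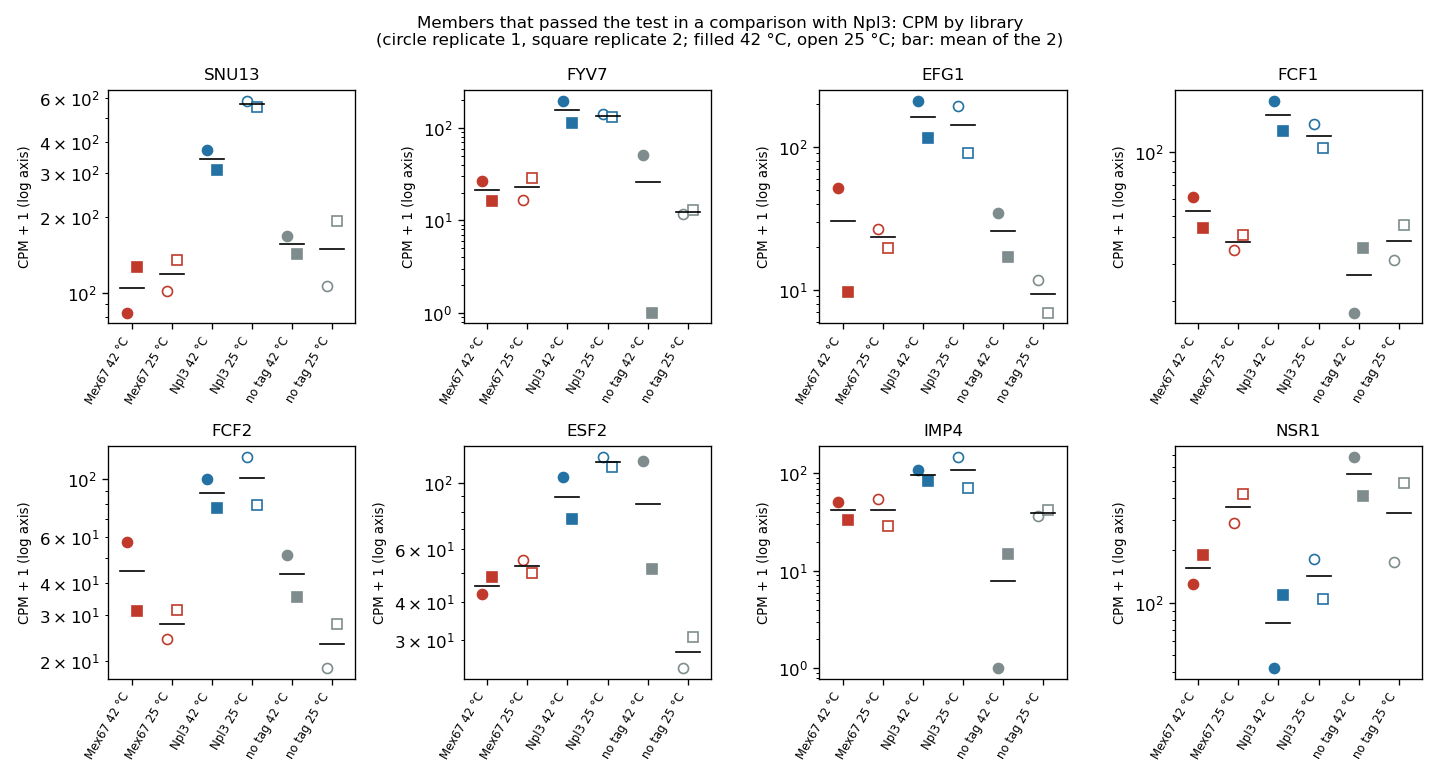
CPM plus 1 (log axis) of the 8 members that passed a test of Npl3 against no tag, in each of the 12 libraries; circles are replicate 1, squares replicate 2, filled symbols 42 °C, open symbols 25 °C and bars the mean of the 2 libraries. In SNU13, FYV7, EFG1, FCF1 and FCF2 all 4 Npl3 symbols lie above the 4 Mex67 symbols, and in NSR1 the Npl3 symbols at 42 °C lie below the no-tag symbols.

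The Mex67 and Npl3 libraries were compared directly to ask whether the 2 proteins carried these messages in different amounts. At 25 °C, 3 members were lower with Mex67 than with Npl3, against 2.52% of all features, and 0 were higher, against 0.286% (edgeR). DESeq2 called 5 lower and 0 higher, but its share of all features is not given, so these counts cannot be set against 2.52%. SNU13 had 101 and 134 CPM with Mex67 and 583 and 553 CPM with Npl3, a log2 difference of -2.27 ± 0.41 (edgeR adjusted p = 0.0259). FCF2 had 23.3 and 30.5 CPM with Mex67, against 121 and 78.5 CPM with Npl3, a difference of -1.87 ± 0.45 (edgeR adjusted p = 0.0447). FCF1 had 33.6 and 39.8 CPM with Mex67 and 133 and 102 CPM with Npl3, a difference of -1.67 ± 0.40 (edgeR adjusted p = 0.045). In all 3 the Mex67 levels overlapped those of the no-tag libraries. EFG1 and FYV7 had larger differences, -2.64 and -2.62, that missed the threshold (edgeR adjusted p = 0.0537 and 0.0583).

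At 42 °C, 3 members were again lower with Mex67, against 3.24% of all features, and 0 higher, against 0.686% (edgeR). DESeq2 called 6 lower and 0 higher, again without its share of all features. FYV7 had 25.5 and 15.1 CPM with Mex67 and 196 and 114 CPM with Npl3, a difference of -2.85 ± 0.66 (edgeR adjusted p = 0.0411). SNU13 had 82.1 and 125 CPM with Mex67 and 371 and 309 CPM with Npl3, a difference of -1.73 ± 0.40 (edgeR adjusted p = 0.0411). FCF1 had 60.6 and 43.1 CPM with Mex67 and 171 and 123 CPM with Npl3, a difference of -1.48 ± 0.37 (edgeR adjusted p = 0.0471). The Npl3 libraries were the higher ones throughout. SNU13 and FCF1 thus passed at both temperatures.

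Both Mex67 libraries lay above both Npl3 libraries in 22 members at 25 °C, against 28.2% of all features, and below them in 15, against 28.6%. At 42 °C they lay above in 6, against 23.5% of all features, and below in 19, against 30%. At 25 °C, PWP2, the central subunit of UTP-B, had 204 and 237 CPM with Mex67 and 90.2 and 56.9 CPM with Npl3, a difference of 1.59 ± 0.55 (edgeR adjusted p = 0.114). MPP10 had 101 and 171 CPM with Mex67 and 47.2 and 53.7 CPM with Npl3, a difference of 1.43 ± 0.48 (edgeR adjusted p = 0.104). In both genes the groups stood apart. At 42 °C their differences of 0.81 and 0.65 came from overlapping groups (edgeR adjusted p = 0.402 and 0.45). The calls between the proteins were few and moved with single libraries: at 25 °C they numbered 0 without any one of the Npl3 or Mex67 libraries of that temperature and 1 to 5 without another. At 42 °C they numbered 4 without Npl3 replicate 2, 3 without no-tag replicate 1 at 25 °C, 1 without Mex67 replicate 1 at 42 °C and 0 without any other single library.

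All members called higher with Npl3, or lower with Mex67 than with Npl3, came from short genes. Of the 57 members 15 span up to 1000 bp, 25 span more than 1000 and up to 2000 bp, and 17 are longer, up to the 7482 bp of UTP20. At 25 °C the median log2 difference of Npl3 from no tag was 1.60 in the short class (14 tested), 0.19 in the middle class and -0.17 in the long class. Coding genes in general showed the same order, with medians of 0.61, -0.10 and -0.43, and 5.85% of the short ones were called higher. At 42 °C the members' medians were 1.18, -0.08 and -0.83, and 14.7% of the short coding genes were called higher. The rank correlation between length and the Npl3 difference, given as a description since all points share the same libraries, was -0.63 over the 56 members and -0.50 over 5147 coding genes at 25 °C. At 42 °C it was -0.61 over the members and -0.42 over the coding genes.

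The same tilt showed in the libraries themselves. The summed CPM of the members up to 1000 bp over that of the members longer than 2000 bp was 1.53 and 0.80 with Npl3 at 42 °C and 1.11 and 0.99 with Npl3 at 25 °C. It was 0.67 and 0.42 with Mex67 at 42 °C, 0.42 and 0.37 with Mex67 at 25 °C, 0.34 and 0.30 without a tag at 42 °C and 0.42 and 0.30 without a tag at 25 °C. Each Npl3 library was above each of the other 8. With offsets that remove the trend of counts on gene length in each library, 0 members passed in any of the 4 comparisons with Npl3 (edgeR), although EFG1 had a difference from no tag of 3.52 and ESF2 one of 1.94 at 25 °C (edgeR adjusted p = 0.0841 for both). SNU13, the shortest member, had 0.93 at 25 °C (edgeR adjusted p = 0.346) and -0.19 at 42 °C (edgeR adjusted p = 0.853). NSR1, of middle length, had -2.95 at 42 °C under these offsets (edgeR adjusted p = 0.0638).

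**Figure D3:**
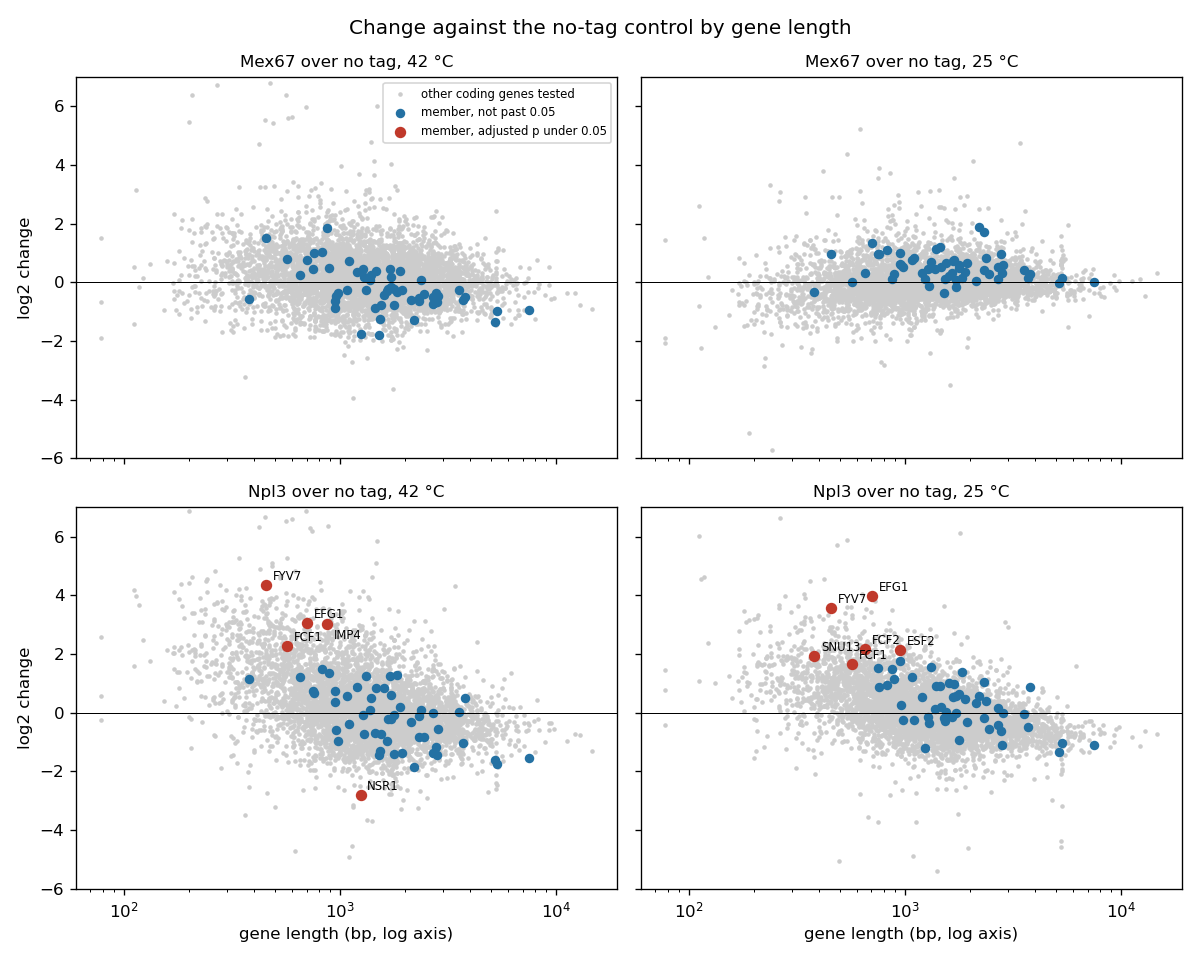
Log2 change against the no-tag control (vertical) by gene length in bp (log axis) for Mex67 (top) and Npl3 (bottom) at 42 °C (left) and 25 °C (right); grey points are coding genes, blue points members and red points members with an adjusted p under 0.05. The red points above 0 all lie left of 1000 bp, members over 2000 bp lie mostly below 0 for Npl3 at 42 °C, and grey points beyond the axis range are not drawn.

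Mex67 libraries were compared with the no-tag libraries in the same way. With edgeR 0 members passed at 25 °C or at 42 °C, beside 0% of all features, and DESeq2 gave 0 members at each. Before adjustment 5 of 56 members at 25 °C and 6 at 42 °C reached 0.05 with edgeR, against 203 and 601 of 5245 features. At 25 °C, 51 of the 56 members lay above 0, with a median log2 difference of 0.46 against 0.00 over all features. The 2 Mex67 libraries were both above the 2 controls in 18 members, against 16.8% of all features, and both below in 0, against 15.8%. HCA4, the helicase that frees the U14 RNA, had 142 and 136 CPM with Mex67 and 17.8 and 71.2 CPM without a tag, a difference of 1.71 ± 0.54 (edgeR adjusted p = 0.999). All 7 late 40S factors were above 0, with a median of 0.83. TSR1, a GTPase-like late factor, had 147 and 176 CPM with Mex67 and 51.5 and 134 CPM without a tag, groups apart by 0.83 ± 0.45 (edgeR adjusted p = 0.999). As with Npl3, no-tag replicate 1 set much of this: the members' median was 0.07 without it and 1.01 without replicate 2. Without replicate 1 HCA4 differed by 0.96 and TSR1 by 0.27, and the late 40S factors had a median of 0.27 with 0 of 7 below 0.

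At 42 °C the members leaned below the control, with 36 of 56 under 0 and a median of -0.32 against 0.13 over all features. The Mex67 libraries were both above the controls in 6 members, against 27.1% of all features, and both below in 22, against 18.8%. The UTP-A and UTP-B genes were all under 0, with medians of -0.63 and -0.38. Without no-tag replicate 1 the median of all members was -0.17, against 0.12 over all features, and 6 of 7 UTP-A and 5 of 6 UTP-B genes were under 0. NOP56 had 105 and 198 CPM with Mex67 and 736 and 348 CPM without a tag, a difference of -1.81 ± 0.54 (edgeR adjusted p = 0.42). NSR1 had 128 and 188 CPM with Mex67 and 686 and 408 CPM without a tag, a difference of -1.77 ± 0.59 (edgeR adjusted p = 0.42). The Mex67 libraries were the lower ones in both genes, and neither passed. Without no-tag replicate 1 the differences were -1.17 for NOP56 and -1.34 for NSR1 (edgeR adjusted p = 0.732 for both). IMP4 had 49.4 and 32.4 CPM with Mex67 and 0 and 13.8 CPM without a tag, the highest difference among the members. The sign of the median depended on the scaling: on total counts alone it was 0.26, and that of all features 0.70, so the members' median lay below that of all features on either scale.

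The heat comparison asked how 30 min at 42 °C altered the amount of these messages in each kind of library. 0 members passed with Mex67, with Npl3 or without a tag, beside 0% of all features. For the average of the 3 strains 0 members passed as well, against 0.0381% of all features higher and 0% lower (edgeR). Before adjustment, 6 of 56 members with Mex67, 2 with Npl3, 3 without a tag and 5 in the average reached 0.05. Among all 5245 features tested, 532, 577, 111 and 815 did so. DESeq2 called 0 members in each strain and 1 in the average, and its share of all features is not given. The direction was uneven all the same. With Mex67, 47 of 56 members were lower at 42 °C, with a median log2 change of -0.58 against 0.05 over all features. Both heated Mex67 libraries lay below both unheated ones in 36 members, against 20.4% of all features, and above them in 3, against 21.8%.

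With Npl3, 43 of 56 members were lower at 42 °C, with a median of -0.32 against 0.10 over all features. The Npl3 groups stood apart downward in 11 members, against 18.6% of all features, and upward in 1, against 26.4%. Without a tag 22 of 56 were lower, with a median of 0.08 against -0.07 over all features. There the groups stood apart upward in 10 members, against 9.72% of all features, and downward in 2, against 18.5%. The no-tag value came from opposite cultures: the members' median change was 0.79 in culture 1 and -0.39 in culture 2. In culture 1 the library labelled 42 °C is the one whose heat treatment is in doubt, so 0.79 may not be a heat change. In the Mex67 cultures it was -0.66 and -0.43, and in the Npl3 cultures -0.68 and -0.04.

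**Figure D4:**
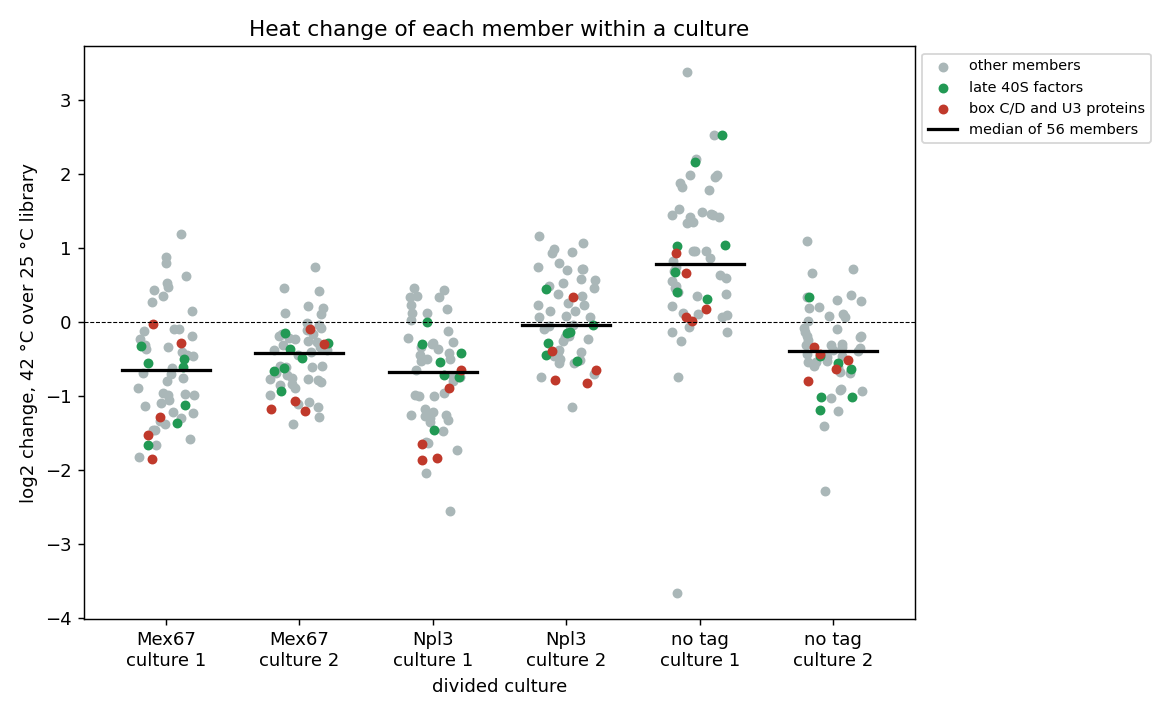
Log2 change of each of 56 members, 42 °C library over the 25 °C library of the same divided culture, for the 6 cultures; red points are box C/D and U3 proteins, green points late 40S factors, grey points other members and bars medians. The medians lie at -0.66 and -0.43 for Mex67, -0.68 and -0.04 for Npl3, and 0.79 and -0.39 for no tag, the 0.79 being that of the culture whose heat treatment is in doubt.

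The box C/D and U3 genes had the lowest median heat change of the 8 roles with Mex67, -1.17, and with Npl3, -1.04. Without a tag it was -0.10, a value that again joins opposite cultures. In no-tag culture 1, with the library of doubtful heat treatment, the median was 0.18 and 0 of 5 genes were below 0. In no-tag culture 2 it was -0.52, with 5 of 5 below 0, as were 5 of 5 in each Mex67 culture (-1.29 and -1.07) and 5 and 4 of 5 in the Npl3 cultures (-1.66 and -0.66). NOP58 (YOR310C, chromosome XV, 896825 to 898360) had 92.5 and 179 CPM with Mex67 at 42 °C and 341 and 408 CPM at 25 °C, a log2 change of -1.48 ± 0.44 (edgeR adjusted p = 0.467). With Npl3 it had 91.8 and 167 CPM at 42 °C, against 337 and 221 CPM at 25 °C, a change of -1.10 ± 0.43 (edgeR adjusted p = 0.422). Without a tag it had 351 and 296 CPM at 42 °C and 311 and 374 CPM at 25 °C, which overlap. Averaged over the strains its change of -0.89 ± 0.25 did not pass (edgeR adjusted p = 0.189), nor did it without both libraries of no-tag culture 1, at -0.98 (edgeR adjusted p = 0.339). It did with DESeq2, at -0.86 (adjusted p = 0.0241), with the culture as a block and length offsets together, at -0.89 (edgeR adjusted p = 0.0483), and without Mex67 replicate 2 at 42 °C, at -1.06 (edgeR adjusted p = 0.0439).

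NOP56 (YLR197W, chromosome XII, 546097 to 547611) had 105 and 198 CPM with Mex67 at 42 °C and 310 and 464 CPM at 25 °C. With Npl3 it had 130 and 253 CPM at 42 °C and 485 and 400 CPM at 25 °C. The heated libraries were lower in both strains, by -1.36 ± 0.52 with Mex67 and -1.20 ± 0.51 with Npl3 (edgeR adjusted p = 0.467 and 0.428). NOP1 had 226 and 354 CPM with Mex67 at 42 °C, against 558 and 747 CPM at 25 °C, and 81.9 and 295 CPM with Npl3 at 42 °C, against 265 and 512 CPM at 25 °C. These groups were apart with Mex67 and overlapped with Npl3. SNU13 and RRP9, the U3-specific protein, moved less with Mex67: SNU13 had 82.1 and 125 CPM at 42 °C and 101 and 134 CPM at 25 °C, and RRP9 73.3 and 77.7 CPM at 42 °C and 75.0 and 96.0 CPM at 25 °C. Both overlapped.

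**Figure D5:**
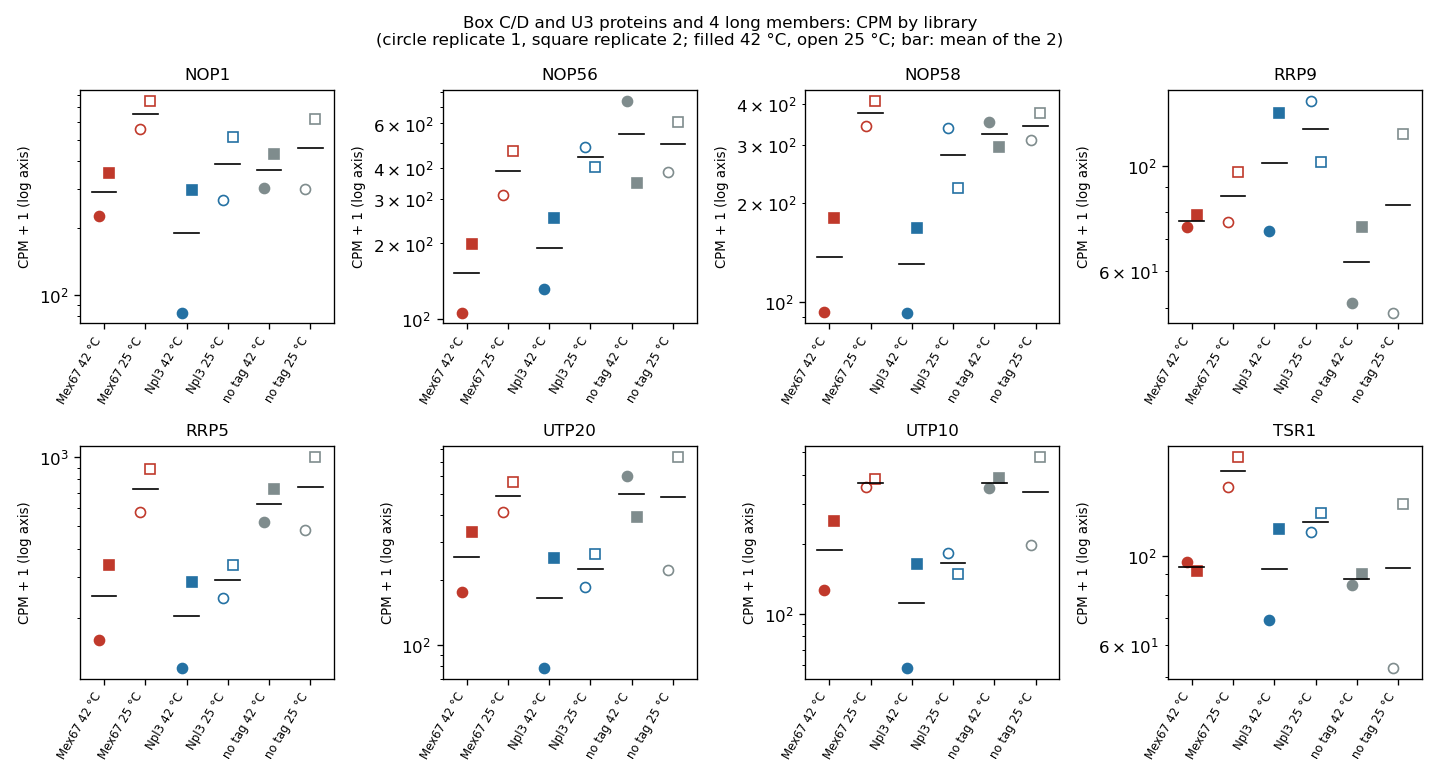
CPM plus 1 (log axis) of NOP1, NOP56, NOP58, RRP9, RRP5, UTP20, UTP10 and TSR1 in each of the 12 libraries; circles are replicate 1, squares replicate 2, filled symbols 42 °C, open symbols 25 °C and bars the mean of the 2 libraries. The filled Mex67 symbols lie below the open ones in every panel but that of RRP9, while filled and open no-tag symbols overlap.

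Among the other processome factors, RRP5 had the lowest heat change of the more abundant members with Mex67. It had 159 and 337 CPM at 42 °C and 574 and 883 CPM at 25 °C, a change of -1.57 ± 0.57 (edgeR adjusted p = 0.467). With Npl3 its levels of 119 and 286 CPM at 42 °C overlapped the 243 and 336 CPM at 25 °C. UTP10, the largest UTP-A subunit, had 126 and 250 CPM with Mex67 at 42 °C and 352 and 384 CPM at 25 °C. UTP20, the longest member and a scaffold protein, had 174 and 332 CPM with Mex67 at 42 °C and 408 and 562 CPM at 25 °C. In both the heated libraries were the lower ones, by -0.98 ± 0.54 for UTP10 and -0.95 ± 0.64 for UTP20 (edgeR adjusted p = 0.528 and 0.589).

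All UTP-A and all UTP-B genes were below 0 with Mex67, with medians of -0.60 and -0.80. The 7 late 40S factors were all below 0 with Mex67 as well (median -0.79), and 6 of 7 were with Npl3 (median -0.38). TSR1 had 95.7 and 90.6 CPM with Mex67 at 42 °C and 147 and 176 CPM at 25 °C, groups apart by -0.79 ± 0.44 (edgeR adjusted p = 0.528). HCA4 had 59.0 and 62.6 CPM with Mex67 at 42 °C and 142 and 136 CPM at 25 °C, a tight pair in each group that differed by -1.19 ± 0.50 (edgeR adjusted p = 0.477). BMS1, the GTPase of the processome, had 163 and 160 CPM with Mex67 at 42 °C and 326 and 321 CPM at 25 °C, again tight pairs (edgeR adjusted p = 0.492). Its partner RCL1 had 56.6 and 56.1 CPM at 42 °C and 43.9 and 51.5 CPM at 25 °C, the heated pair being the higher one.

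The heat change with Mex67 lay lower in longer members: its median was -0.82 over 2000 bp, where 0 of 17 were above 0, -0.45 in the middle class and -0.12 up to 1000 bp. Coding genes in general had medians of -0.04, -0.01 and 0.19 in these classes. The rank correlation of length with the heat change was -0.49 over the members and -0.17 over the coding genes. With length offsets the members' median with Mex67 was -0.54.

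Counted by culture, EMG1, the methyltransferase of 18S RNA, was the one member lower at 42 °C in 6 of 6 cultures, a pattern that 6.25% of all features had. Its largest drop was by 0.50 on the log2 scale. Without no-tag culture 1, 18 members were lower in 5 of 5 cultures, against 12.8% of all features, and 21 were lower in the 4 tagged cultures, against 16.1%. NOP1, NOP56, NOP58, SNU13, KRR1, RRP5, UTP20 and the late factors LTV1, TSR1, DIM1, NOB1 and RIO2 are among the 18. FAL1 was higher at 42 °C in every culture, at 7.10 to 25.2 CPM over all libraries and thus on few counts.

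The difference of the heat changes between strains was tested directly. With edgeR 0 members passed for Mex67 minus no tag, Npl3 minus no tag or Mex67 minus Npl3, beside 0% of all features. DESeq2 gave 0 members in each. Before adjustment 7, 2 and 0 of 56 members reached 0.05 with edgeR, against 186, 153 and 66 of 5245 features. The median difference was -0.77 for Mex67 minus no tag, -0.48 for Npl3 minus no tag and -0.31 for Mex67 minus Npl3. HCA4 differed by -2.26 ± 0.78 and NSR1 by -1.88 ± 0.82 between Mex67 and no tag (edgeR adjusted p = 0.996 for both). These medians again followed the no-tag libraries at 25 °C, and those against no tag include the library of doubtful heat treatment: Mex67 minus no tag came to -0.23 without replicate 1 and -1.46 without replicate 2, and Npl3 minus no tag to 0.0030 and -1.18. Mex67 minus Npl3 came to 0.12 without Npl3 replicate 2 at 42 °C.

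Other ribosome assembly genes served as a comparison, in lists of 34 further 40S factors and 59 60S factors. The list of 34 also holds NOP10 and GAR1, of the H/ACA core genes given below. It is thus not a list of 40S factors alone, and the H/ACA values are not separate from it. With Npl3 at 25 °C, 3 of 34 and 7 of 59 were higher than without a tag and 0 lower (edgeR, same threshold). Among the members 6 of 56 were higher, and among all features 2.27% were higher and 0.133% lower. The 3 further 40S factors were NOP6, PXR1 and CMS1, and the 60S genes included NOP15 (3.53 ± 0.54), NOP16 (3.45 ± 0.60) and CGR1 (3.23 ± 0.47). At 42 °C, 3 of 34 and 3 of 59 were higher, beside 4 of 56 members and 6.52% of all features. The median heat change with Mex67 was -0.51 for the further 40S factors and -0.86 for the 60S factors, beside -0.58 for the members, and with Npl3 -0.26, -0.44 and -0.32. In neither list did a gene pass in a heat comparison. The 4 core genes of the H/ACA particles, which guide the other class of RNA modification, had averaged heat changes of -1.04 ± 0.20 for GAR1, -0.73 ± 0.27 for CBF5, -0.70 ± 0.25 for NHP2 and -0.25 ± 0.25 for NOP10 (edgeR adjusted p = 0.0969, 0.238, 0.224 and 0.666).

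The U3 RNA itself was counted as snR17A and snR17B. For snR17A, Npl3 libraries had 5828 and 4790 CPM at 42 °C and 5838 and 3122 CPM at 25 °C, Mex67 libraries 3442 and 19300 CPM at 42 °C and 9599 and 12410 CPM at 25 °C, and no-tag libraries 27500 and 18540 CPM at 42 °C and 20790 and 12400 CPM at 25 °C. The 4 Npl3 libraries and 1 Mex67 library were the lowest. The difference from no tag was -1.89 ± 0.80 at 25 °C and -2.12 ± 0.81 at 42 °C for Npl3 (edgeR adjusted p = 0.204 and 0.113), and the averaged heat change was 0.25 ± 0.45 (edgeR adjusted p = 0.83). None of these passed the test.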

How the data were processed

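The deposited values were whole-number counts per annotated feature, 1 table per library. Per the submitters' processing notes, the tools were STAR, DESeq2, CASAVA 1.8.2 and Subread 1.5.0-p1 with its featureCounts, on build R64. The strand setting is not given in the sources used here, nor is the treatment of multiply mapping reads. Per the labels' protocols, rRNA was not depleted.

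Counts were joined to symbols, coordinates and lengths through a RefSeq gene table of the same build (6048 features by locus tag, 121 by symbol, 957 unmatched). Tests used edgeR 4.0.16 in R 4.3.3 (glmQLFit with robust estimation, TMM scaling, filterByExpr with 10 counts and 15 in total) on all 12 libraries with 1 mean per group, with Benjamini-Hochberg adjustment at 0.05 over 5245 features in each of 13 comparisons. CPM are TMM-scaled, and log2 changes of single cultures used a prior count of 2. An SE is the log2 change over the root of its F statistic. The code was tested on simulated data.

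The members, lists and rules were chosen with earlier results of these data known. Values were given in full for members past the threshold, for the highest and lowest change per comparison among members averaging 50 counts or more per library, and for fixed members of each role. PWP2, MPP10, KRR1, UTP10 and the other members named beside these belong to the roles or were chosen after their values were seen. Cultures were divided between the temperatures, per the labels, so those libraries are pairs. The deviations of replicate 1 from replicate 2 correlated at 0.60 (Mex67), 0.11 (Npl3) and 0.27 (no tag) between the temperatures, and at -0.17 to 0.46 between strains, over 2247 genes. Alternatives were DESeq2 1.42.0, RLE or total-count scaling, other filters, coding features only, only the groups compared, length offsets (lowess, span 0.4), blocks by culture or replicate number, and leaving out libraries. Promoter motifs and protein sequences were not analysed here. Figures used matplotlib 3.10.9.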

Additional observations from a re-analysis of the deposited data

How the results depend on the processing

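The counts of members that passed and the median changes were recomputed under each alternative, and the cause of a shift was not tested beyond what each alternative changes. The share of all features called under an alternative, or with a library left out, is not given beside these counts. A higher or lower count is therefore not a result about the members alone. For Mex67 against Npl3, 3 members passed at each temperature. At 25 °C there were 1 on total counts, 5 with DESeq2, 5 without the low-count filter, 6 with only the groups compared, 5 on coding features, 0 with length offsets and 6 with the replicate number as a block. At 42 °C there were 0 on total counts, 6 with DESeq2, 6 without the filter, 1 with a mean of at least 50 counts, 0 with only the groups compared, 0 with length offsets and 6 with the replicate block. For Npl3 against no tag, 0 passed at 25 °C and 0 at 42 °C with length offsets. On total counts the median was 0.26 for Mex67 and 0.36 for Npl3 against no tag at 42 °C.

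The averaged heat change gave 1 member with DESeq2 and 1 with the culture block and length offsets together. The culture block alone, the paired analysis, called 0 members in each of the 7 heat comparisons and changed no call, as did the replicate number block there. A block by replicate number does not rest on a stated pairing between strains, and it called 7 members for Npl3 against no tag at each temperature.

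Leaving out 1 library at a time gave 0 to 7 calls for Npl3 against no tag at 25 °C, 0 to 14 at 42 °C, 0 to 5 for Mex67 against Npl3 at 25 °C, 0 to 4 at 42 °C, and 0 to 1 for the averaged heat change, while the other 8 comparisons had 0 throughout. With 1 library left in a group, that library is assumed to vary like the others. The median ranged from 0.070 to 1.01 (Mex67 against no tag, 25 °C), -0.059 to 0.91 (Npl3 against no tag, 25 °C), -0.30 to 0.75 (heat, no tag), -0.78 to -0.019 (heat, Npl3), -1.46 to -0.23 (heat, Mex67 minus no tag), -1.18 to 0.0030 (heat, Npl3 minus no tag) and -0.58 to 0.12 (heat, Mex67 minus Npl3).

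Without both libraries of no-tag culture 1, a choice made after seeing the data, 0 members passed in the 4 comparisons with calls: 0 for Npl3 against no tag and 0 for Mex67 against Npl3. The median was then 0.068 for Mex67 and -0.00837 for Npl3 against no tag at 25 °C, -0.39 for heat without a tag, -0.21 for Mex67 minus no tag and 0.077 for Npl3 minus no tag. The heat median was -0.55 with Mex67 and -0.36 with Npl3.

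Single members changed sign as follows. Leaving out single libraries, EFG1 ranged from -0.026 to 0.90 for the averaged heat change and from -1.32 to 1.24 for heat with Mex67, each lowest without Mex67 replicate 1 at 42 °C. FYV7 rests on 3 control counts at 42 °C. With the culture block and length offsets it had 0.13 for heat without a tag and -0.16 for Npl3 minus no tag. Leaving out single libraries, it ranged from -6.01 to 2.23 and from -2.16 to 6.09 in these, and from -1.26 to 6.98 for Mex67 against no tag at 42 °C; without no-tag replicate 1 the control is at 0 counts, so those outer values depend on the prior count. NOP56 ranged from -0.66 to 0.0091 for Mex67 against no tag at 25 °C, above 0 without no-tag replicate 2. SNU13 had -0.19 for Npl3 against no tag at 42 °C with length offsets. Depth was lowest in no-tag replicate 1 at 42 °C, where the members had 469 counts. The calls of FYV7, EFG1, IMP4 and FCF1 against no tag at 42 °C rest on 0 to 3 counts of each in that library.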
